A study of Mus musculus with 12 samples.

Results

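Sca-high cells in which miR-34a had been induced were compared, gene by gene, with Sca-low cells, to measure how far the induced cells remained from the more differentiated population of the same cell line. The comparison holds 6 of the 12 RNA-seq libraries of the study, chosen by their labels, with 3 libraries per group. Of the 21853 listed genes, 10597 reached 1 RPKM (reads scaled to the length of the gene and the size of the library) in at least 3 of the 12 libraries and were tested.

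All libraries came from CommaDβ, a normal mouse mammary epithelial line that holds a Sca-1 positive, basal and progenitor-like population (Sca-high) and a Sca-1 negative, luminal and more differentiated one (Sca-low), parted by FACS on the surface antigen Sca-1. Sca-low cells were uninfected and untreated. Sca-high 34a cells were sorted as Sca-1 positive, carried the lentiviral, doxycycline-inducible miR-34a vector pSliK34a, and had received doxycycline for 24 h. The other 6 libraries were of uninfected Sca-high cells and of Sca-high cells with the same vector but no doxycycline (Sca-high NT), and they are used below only to place the result. The sorted population, the vector, doxycycline and miR-34a all differ between the groups compared, so their parts in a difference cannot be told apart in this comparison. The tag for genotype in the labels has the induced and uninduced cells the other way round from the titles and source names, and the groups follow the titles. All values come from 1 cell line, and whether the 3 libraries of a group stem from separate cultures is not said in any source. The p-values therefore cover the variation among libraries alone, and part of it may be technical.

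miR-34a is a microRNA switched on by the tumor suppressor p53. It pairs through its seed, the bases near its 5′ end, with sites in the 3′ UTRs of messenger RNAs and lowers their amount or translation, and it is best known for stopping cells before DNA replication. In the mammary gland, basal cells carry keratins 5 and 14 and the transcription factor p63, whereas luminal cells carry keratins 8 and 18, Epcam and E-cadherin. The induced miRNA is shown because its seed, in capitals, is the sequence searched for in the 3′ UTRs below. miR-34b-5p, which has the same seed, is printed under it. Both are RefSeq sequences, and miR-34a-5p lies on the plus strand of chr4:150068473-150068494 in GRCm38.p6.
mmu-miR-34a-5p: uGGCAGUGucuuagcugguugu
mmu-miR-34b-5p: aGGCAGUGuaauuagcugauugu

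The labels were first checked against the data. *Mir34a* was at 87.8, 74.9 and 128 scaled RPKM (RPKM after rescaling the libraries to each other) in the Sca-high 34a libraries, which were 744, 632 and 1137 reads. In Sca-low libraries it was at 0, 0.486 and 0.126 (0, 4 and 1 reads), so the groups did not overlap. TruSeq libraries of total RNA hold few RNAs as short as a mature miRNA, and a longer transcript of the gene and one of the vector cannot be told apart as the source of these reads. *Ly6a*, which encodes Sca-1, was at 8.89, 8.92 and 6.34 scaled RPKM in Sca-high 34a and at 1.88, 0.995 and 1.08 in Sca-low libraries, a log2 difference of 2.56 ± 0.21 (SE, limma adjusted p = 3.8e-07), so the induced cells still carried the RNA of the sort marker. Markers of other cell types were near the floor in both groups. Of 14 listed immune genes and 8 fibroblast and smooth muscle genes, 1 each passed the filter on low values (*Cd68* and *Dcn*), and none of 8 endothelial genes did. The summed level of the immune list was 1.47 to 1.87 scaled RPKM in Sca-low and 1.38 to 1.57 in Sca-high 34a libraries, and that of the fibroblast list was 0.468 to 0.486 and 0.846 to 0.989.

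Induced cells lay further from Sca-low cells than Sca-high cells without induction did. A gene was called different where its p from limma, adjusted by the method of Benjamini and Hochberg, was below 0.01 and the groups differed by more than 0.5 on the log2 scale. By this rule 5823 of 10597 genes differed between Sca-high 34a and Sca-low cells (54.9%), of which 2788 were higher in the induced cells (26.3%) and 3035 were lower (28.6%). The same Sca-low libraries against uninfected Sca-high cells gave 4272 genes (40.3%), and against Sca-high NT cells 4071 genes (38.4%). The median absolute log2 difference was 0.61 in the first comparison, 0.42 in the second and 0.39 in the third. Large negative differences were more frequent: 245 genes were lower by more than 4 on the log2 scale in Sca-high 34a than in Sca-low cells, against 100 in Sca-high and 135 in Sca-high NT cells. The numbers higher by as much were 51, 15 and 35.

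The distance between libraries gave the same order. Over the 10597 genes, the root mean square difference on the log2 scale was 1.39 to 1.46 (median 1.43) for the 9 pairs of a Sca-low and a Sca-high 34a library. It was 0.995 to 1.14 (median 1.07) against Sca-high and 1.10 to 1.18 (median 1.16) against Sca-high NT libraries, so the ranges did not overlap. Within groups, it was 0.177 to 0.213 for Sca-low and 0.176 to 0.404 for Sca-high 34a libraries. The upper end came from library 12, which lay apart from the other induced libraries, 10 and 11. Without library 12 the range against Sca-low libraries was still 1.39 to 1.46. Leaving out the 2 cell cycle lists described below gave 1.35 to 1.42 for the induced cells, against medians of 1.07 and 1.17 for the other Sca-high groups.

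**Figure D1:**
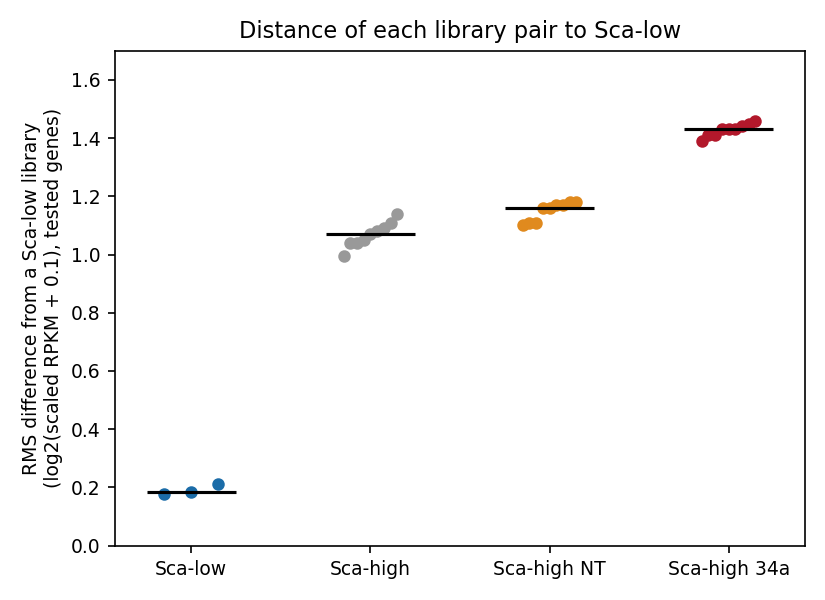
Root mean square difference of log2(scaled RPKM + 0.1) over 10597 genes between each library pair with a Sca-low library (vertical axis), by the group of the other library (horizontal axis); each point is a pair and each bar the median. The 9 pairs with a Sca-high 34a library lie at 1.39 to 1.46, above all pairs with the other Sca-high groups and far above pairs within Sca-low.

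Simple epithelial keratins and most listed junctional and apical genes stayed far below their level in Sca-low cells after induction. Of 72 tested members of 6 epithelial lists (simple epithelial keratins, adhesion, tight junction and polarity, desmosome, transcription and splicing factors, apical and secretory genes), 50 were lower in Sca-high 34a than in Sca-low cells, 12 were higher and 10 were not called. Their median log2 difference was −2.58, against −0.03 over all tested genes. In Sca-low cells 68 of them had a mean of at least 1 scaled RPKM, and 32 of these 68 were below 1 in Sca-high 34a cells, next to 31 in Sca-high NT and 30 in Sca-high cells. Listed genes that were low in every group are not among the 72 tested. Fewer cells of a type and less RNA per cell cannot be told apart in bulk RNA.

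All 3 tested simple epithelial keratins were lower. *Krt18*, the luminal keratin 18, was at 549, 533 and 563 scaled RPKM in Sca-low and at 4.32, 3.73 and 3.71 in Sca-high 34a libraries. The groups did not overlap, as was so for 77.1% of all tested genes, and the log2 difference was −7.10 ± 0.09 (SE, adjusted p = 1.7e-13). *Krt8*, its partner in luminal filaments, was at 111, 104 and 119 against 1.35, 1.34 and 0.926, and *Krt7*, a keratin of simple ductal epithelium, at 256, 269 and 271 against 1.55, 1.64 and 1.85, again without overlap. The induced cells differed little from the uninduced vector cells here. *Krt18* was 0.59 ± 0.09 higher on the log2 scale in Sca-high 34a than in Sca-high NT cells (adjusted p = 9.6e-05), whereas for *Krt8* and *Krt7* the difference was −0.18 (95% interval −0.46 to 0.10) and −0.19 (−0.45 to 0.07). The rise of *Krt18* covered little of the gap to Sca-low cells.

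Adhesion genes followed the keratins. *Epcam*, a surface adhesion molecule of epithelium, was at 109, 109 and 119 scaled RPKM in Sca-low and at 0.508, 0.404 and 0.677 in Sca-high 34a libraries (log2 difference −7.50 ± 0.16 SE, adjusted p = 2.2e-12). *Cdh1*, which encodes E-cadherin, the core of the adherens junction, was at 15.8, 19.0 and 15.4 against 0.126, 0.110 and 0.221 (−6.08 ± 0.19 SE, adjusted p = 4.7e-11). Neither gene overlapped between the groups, and neither was called between induced and uninduced vector cells (−0.20, 95% interval −0.55 to 0.16, for *Epcam* and −0.10, −0.52 to 0.32, for *Cdh1*). Of the 15 tested adhesion genes 9 were lower and 3 higher, *Pvrl1* and *Pvrl2* (nectins 1 and 2) and *Bcam*, a receptor for laminin (log2 differences 1.87, 1.19 and 2.96). *St14*, the membrane protease matriptase, and *Spint1*, its inhibitor, were lower together, by −5.56 and −5.65.

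In the tight junction and polarity list 15 of 22 tested genes were lower and 4 higher. The claudins *Cldn3*, *Cldn4* and *Cldn7*, which seal the space between epithelial cells, and occludin (*Ocln*) were lower by 5.67, 3.42, 5.96 and 5.08 on the log2 scale. *Cldn4* was at 8.13, 8.30 and 9.92 scaled RPKM in Sca-low, 0.791, 0.733 and 0.668 in Sca-high 34a, and 0.419, 0.359 and 0.395 in Sca-high NT libraries. It was higher in induced than in uninduced vector cells by 0.76 ± 0.17 (SE, adjusted p = 0.0017) without reaching the level of Sca-low cells. In that comparison of induced with uninduced vector cells, where 39.0% of tested genes were called, 17.5% higher and 21.4% lower, 7 of the 22 junction genes were higher and none was lower. Against uninfected Sca-high cells 8 of the 22 were higher and 5 lower (median −0.09). The other epithelial lists, induced against uninduced vector cells, had 1 higher and 3 lower of 15 adhesion genes and 1 and 4 of 12 desmosome genes. They had 0 and 4 of 11 transcription and splicing factors, 2 and 2 of 9 apical genes and 1 and 0 of 3 keratins. *Tjp1*, the scaffold ZO-1, was at 9.07, 10.2 and 8.88 in Sca-low and 8.68, 7.57 and 13.0 in Sca-high 34a libraries, with overlap and a difference of 0.02 (−0.34 to 0.38). *Cgnl1* (paracingulin) was the junction gene most above Sca-low cells, at a log2 difference of 2.79 ± 0.12 (SE).

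Of 11 tested epithelial transcription and splicing factors 7 were lower, 3 were not called and 1, *Grhl3*, was higher (2.00), and 6 of the 10 with at least 1 scaled RPKM in Sca-low cells were below 1 in Sca-high 34a cells. *Grhl2*, an activator of *Cdh1* and of claudins, was at 10, 10.2 and 10 scaled RPKM in Sca-low and 0.197, 0.190 and 0.227 in Sca-high 34a libraries. *Esrp1*, the regulator of epithelial splicing, was at 10.5, 11.9 and 10.9 against 0.0709, 0.0569 and 0.101, and *Ehf*, an ETS factor of luminal epithelium, at 8.24, 8.64 and 10.1 against 0.0452, 0.0320 and 0.0662. None of these 3 overlapped. *Ovol2*, a repressor of mesenchymal genes, had 1, 0 and 0 reads in the induced libraries, and 2.49, 2.46 and 2.47 scaled RPKM in Sca-low libraries. In the apical and secretory list 8 of 9 tested genes were lower, among them *Wfdc2*, a secreted protease inhibitor, at 182, 190 and 180 against 1.63, 1.38 and 1.79. *Rab25*, a GTPase of apical recycling, was lower by 4.79 and *Cd24a*, a surface protein of luminal cells, by 2.78.

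**Figure D2:**
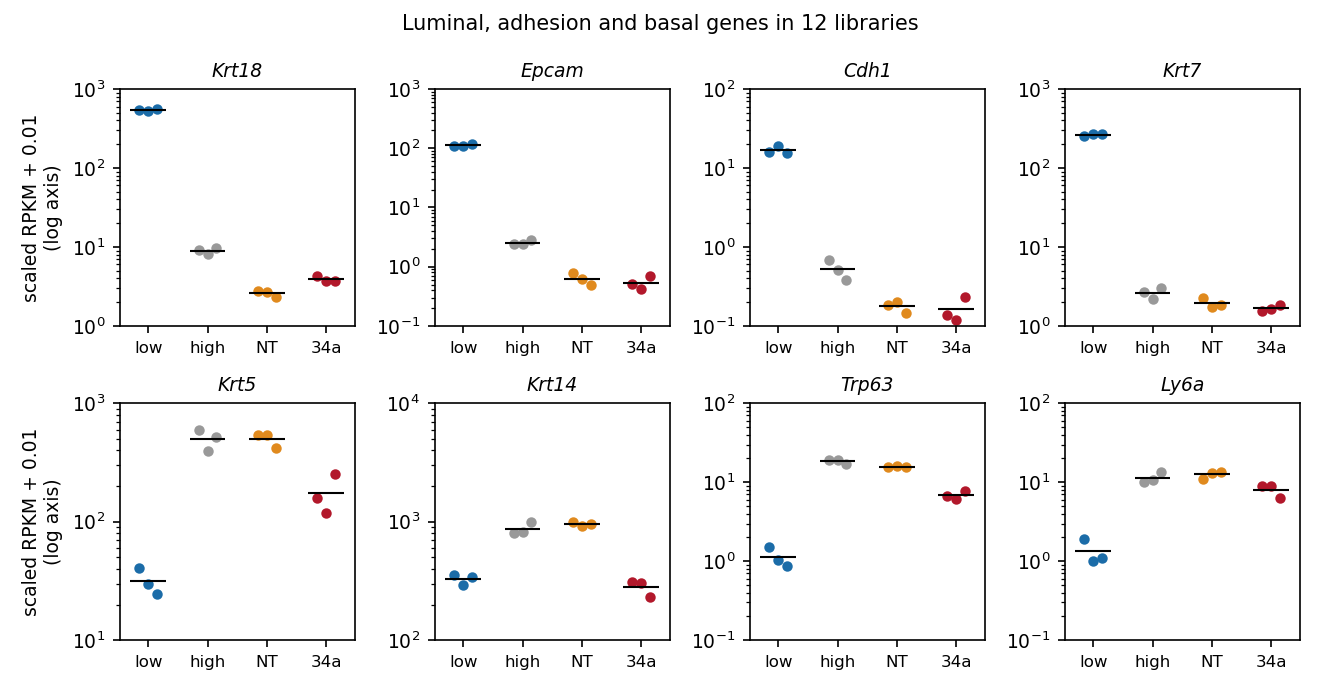
Scaled RPKM + 0.01 (vertical axes, log scale, a separate range per gene) of luminal, junctional and basal genes in the Sca-low, Sca-high, Sca-high NT and Sca-high 34a groups (horizontal axes); each point is a library and each bar a group mean. *Krt18*, *Epcam*, *Cdh1* and *Krt7* are low in every Sca-high group, while in Sca-high 34a libraries *Krt5* and *Trp63* lie between Sca-low and the other Sca-high libraries and *Krt14* overlaps Sca-low.

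Because these genes were lower together, their promoters were searched for CAGGTG, an E-box that repressors of the Zeb and Snail families bind. It was read on both strands (CACCTG on the other) from 250 bases before to 50 after each RefSeq start site in GRCm38.p6. The motif was in 20.2% of 32851 promoters. Counted by gene, with a match in any of a gene's promoters, it was found for 19.6% of 8412 tested genes, for 20.6% of those called lower, 20.3% of those called higher and 18.4% of those not called. Of the 72 tested epithelial genes 43 had an entry, and 25 of these held the motif (58.1%), 18 of 28 among those called lower and 7 of 15 among the rest. The epithelial lists were chosen with earlier results of these data known, so their share describes the lists. A match is a stretch of letters and not a bound site. Whether a factor that binds the motif acts on these genes was not tested. The windows of *Epcam* (plus strand, chr17:87635729-87635978), *Crb3*, a polarity gene (plus strand, chr17:57061951-57062200), and *Rab25* (minus strand, chr3:88548280-88548529) are shown because each holds at least 2 matches, which are in capitals. Each runs 5′ to 3′ along the gene and ends just before the start site.
Epcam: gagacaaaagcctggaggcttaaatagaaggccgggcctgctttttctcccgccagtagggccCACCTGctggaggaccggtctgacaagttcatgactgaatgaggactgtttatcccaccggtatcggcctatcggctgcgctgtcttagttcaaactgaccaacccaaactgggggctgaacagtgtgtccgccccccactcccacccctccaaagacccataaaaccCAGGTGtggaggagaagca
Crb3: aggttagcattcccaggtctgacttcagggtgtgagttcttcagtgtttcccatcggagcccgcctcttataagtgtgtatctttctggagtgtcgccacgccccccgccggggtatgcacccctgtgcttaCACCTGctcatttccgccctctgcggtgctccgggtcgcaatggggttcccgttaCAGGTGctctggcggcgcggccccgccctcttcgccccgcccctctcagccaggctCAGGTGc
Rab25: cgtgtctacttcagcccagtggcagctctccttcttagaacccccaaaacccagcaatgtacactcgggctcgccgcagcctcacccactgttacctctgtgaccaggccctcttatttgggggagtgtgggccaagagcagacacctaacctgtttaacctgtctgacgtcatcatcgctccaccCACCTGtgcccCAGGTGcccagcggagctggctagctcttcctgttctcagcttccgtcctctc

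Of the factors named for this motif, *Zeb1* was at 2.92, 2.80 and 3.61 scaled RPKM in Sca-high 34a and 0.750, 0.761 and 0.581 in Sca-low libraries (log2 difference 2.01 ± 0.11 SE, adjusted p = 8.7e-09). *Zeb2* was higher by 1.35 ± 0.07, *Snai2* by 1.96 ± 0.28 and *Twist2*, another driver of the mesenchymal state, by 2.23 ± 0.16. *Snai1* was at 1.33, 1.17 and 1.90 against 1.34, 1.19 and 1.35, and its difference of 0.15 (95% interval −0.35 to 0.64) was not called. Over the 12 tested transcription factors of the epithelial to mesenchymal transition, 5 were higher and 3 lower (*Sox9*, *Foxc1* and *Snai3*). Between induced and uninduced vector cells none of the 12 was higher and 6 were lower, *Snai2* by 1.17 and *Twist2* by 1.72, while *Zeb1* differed by 0.12 (−0.12 to 0.37).

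Basal genes did not move as a block. Sca-high 34a cells had 11 of 24 tested basal and myoepithelial genes above Sca-low cells and 7 below, with a median log2 difference of 0.25. Over all tested genes 26.3% were higher and 28.6% lower, so the count below was close to the share over all genes. Against the same Sca-low libraries, uninfected Sca-high cells had 18 above and 2 below (median 1.37), where 19.9% and 20.4% of all tested genes were called higher and lower. Sca-high NT cells had 19 above and 1 below (median 1.85), where 19.3% and 19.1% were. Set directly against Sca-high NT cells, the induced cells had 19 of the 24 lower and none higher. This tests whether the signed difference from Sca-low cells changed, since the Sca-low mean cancels. It does not test distance, because a gene lower than in Sca-high NT cells may lie nearer to Sca-low cells or below them.

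*Krt5*, the basal keratin 5, was at 157, 118 and 254 scaled RPKM in Sca-high 34a, 40.3, 29.5 and 24.6 in Sca-low, and 544, 543 and 420 in Sca-high NT libraries. It lay between the other groups without overlap, 2.44 ± 0.27 above Sca-low (SE, adjusted p = 4.4e-06) and 1.57 ± 0.27 below Sca-high NT cells (adjusted p = 0.00029) on the log2 scale. *Trp63*, which maintains basal epithelium, showed the same order at 6.65, 6.14 and 7.74, against 1.52, 1.02 and 0.866 in Sca-low and 15.5, 16.2 and 15.7 in Sca-high NT libraries. *Cdh3*, the basal P-cadherin, stayed 2.52 ± 0.18 above Sca-low cells and *Col17a1*, a collagen of the hemidesmosome, 2.10 ± 0.15. *Acta2*, the smooth muscle actin of myoepithelium, was 0.89 ± 0.10 above Sca-low cells but 1.98 ± 0.10 below Sca-high NT cells.

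Another set of basal genes was at or below the level of Sca-low cells. *Krt14*, the partner of keratin 5, was at 310, 302 and 232 scaled RPKM in Sca-high 34a and 353, 291 and 342 in Sca-low libraries. The groups overlapped, with a log2 difference of −0.23 (95% interval −0.53 to 0.06, adjusted p = 0.13), whereas Sca-high NT libraries had 992, 912 and 962. *Krt17* and *Krt6a*, keratins induced by stress and wounding, were lower than in Sca-low cells by 0.70 ± 0.15 and 1.62 ± 0.16. *Krt6a* was at 13.5, 14.0 and 10.1 against 44.0, 32.1 and 39.7. *Itgb4*, the integrin of the hemidesmosome, was called lower (−0.87 ± 0.24 SE, adjusted p = 0.0057), with library 12 at 12.9 next to 7.51 and 6.15 in the other induced libraries and 14.6 to 16.2 in Sca-low libraries. It was no longer called when any of the 6 libraries but 12 was left out (limma adjusted p 0.0129 to 0.0246).

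All 47 tested genes of G1/S and DNA replication and all 55 tested genes of G2/M and mitosis were lower in Sca-high 34a cells, with median log2 differences of −2.70 and −3.96. The lists hold 47 and 56 genes. Against the same Sca-low libraries 7 and 17 of them were lower in Sca-high cells (medians −0.10 and −0.34), and 13 and 25 in Sca-high NT cells (medians −0.23 and −0.48). In the direct comparison with Sca-high NT cells, 45 and 54 were lower.

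*Mki67*, the marker of cycling cells, was at 74.1, 78.2 and 68.7 scaled RPKM in Sca-low and 2.48, 2.24 and 2.80 in Sca-high 34a libraries, a log2 difference of −4.83 ± 0.08 (SE, adjusted p = 5.5e-13). It was at 65.3, 65.9 and 59.1 in Sca-high and 44.4, 41.4 and 43.9 in Sca-high NT libraries, so the induced libraries were the lowest of the 12. *Ccna2*, the cyclin A2 of S phase and G2, was at 157, 150 and 157 in Sca-low and 2.56, 2.40 and 2.24 in Sca-high 34a libraries. *Mcm5*, a subunit of the replicative helicase, was at 65.5, 59.6 and 63.7 against 1.54, 1.41 and 1.45, and fell further than *Mcm2*, at 45.5, 42.0 and 40.7 against 9.26, 9.11 and 10.1. The mitotic kinase *Cdk1* was lower by 3.61 and cyclin B1 (*Ccnb1*) by 4.79. None of these genes overlapped between the groups.

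**Figure D3:**
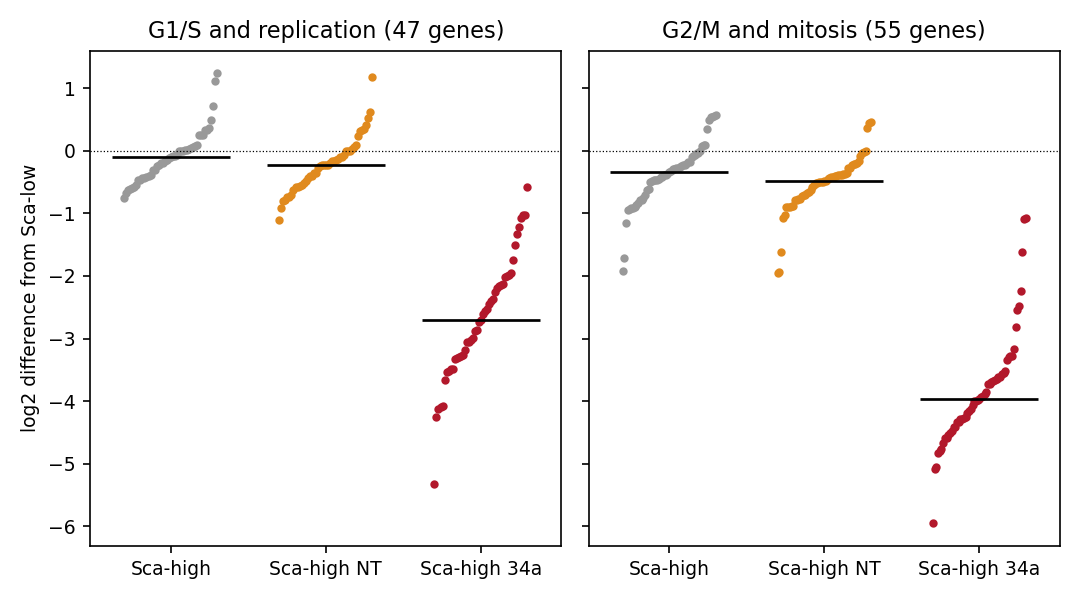
Log2 difference from Sca-low cells (vertical axis) of each tested gene of the G1/S and replication list (left, 47 genes) and the G2/M and mitosis list (right, 55 genes) in the 3 Sca-high groups (horizontal axis); each point is a gene and each bar the median. The medians are −0.10, −0.23 and −2.70 on the left and −0.34, −0.48 and −3.96 on the right, all against the same 3 Sca-low libraries.

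Among the regulators of G1, 9 of 17 tested genes were lower and 5 higher, the latter close to the share over all tested genes (26.3%). In Sca-high cells 2 were lower and 5 higher, and in Sca-high NT cells 3 and 4. *Ccne2* (cyclin E2) was at 0.483, 0.518 and 0.433 scaled RPKM in Sca-high 34a and 5.62, 5.11 and 5.75 in Sca-low libraries, and *Cdk6* at 3.36, 3.05 and 4.22 against 9.64, 11 and 9.25. *Ccnd1* (cyclin D1) was lower by 1.43 ± 0.07, but it was also lower in Sca-high (1.24 ± 0.07) and Sca-high NT cells (1.18 ± 0.07). *Ccnd2* (cyclin D2) went the other way, at 26.6, 19.8 and 59.4 against 1.28, 0.752 and 0.436, and it was also higher in Sca-high NT cells (3.97 ± 0.42). The 5 higher genes were *Ccnd2*, *Cdkn1a*, *Rbl2*, *Cdkn2a* and *Cdkn2b*, of which *Cdkn1a* (p21), *Cdkn2a* and *Cdkn2b* (p15) encode inhibitors of cyclin-dependent kinases. *Cdkn1b* (p27), another inhibitor, was lower by 0.79 ± 0.11. *Cdkn2a* (log2 difference 0.82) was no longer called without library 4, 6, 10 or 12 (limma adjusted p 0.0106 to 0.0147).

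Targets of p53 were more often higher than lower, 17 against 6 of 30 tested (median log2 difference 0.74). Over all tested genes 26.3% were higher and 28.6% lower. *Cdkn1a* was at 23.5, 19.6 and 44.4 scaled RPKM in Sca-high 34a and 2.14, 2.15 and 1.42 in Sca-low libraries, a difference of 3.80 ± 0.28 (SE, adjusted p = 1.3e-07), with library 12 the highest. *Trp53inp1*, a p53-induced nuclear protein, was at 6.52, 7.33 and 6.77 against 0.275, 0.350 and 0.274. *Fas*, a death receptor, was higher by 3.30 ± 0.18 and *Mdm2*, the ligase that degrades p53, by 0.91 ± 0.06. *Trp53* itself was at 24.4, 23.5 and 27.2 against 25.5, 24.8 and 27.6, with overlap and a difference of −0.06 (95% interval −0.23 to 0.12). Part of the list was above Sca-low cells without induction. In Sca-high NT cells 15 of the 30 were called higher and 3 lower, where 19.3% and 19.1% of all tested genes were. In Sca-high cells 11 were higher and 4 lower, where 19.9% and 20.4% were. Set directly against Sca-high NT cells, the induced cells had 9 of the 30 higher and 7 lower (median 0.02). Over all tested genes 17.5% were higher and 21.4% lower in that comparison, so the count below was close to the share over all genes. *Fas* did not differ between induced and uninduced vector cells beyond the spread (0.12, −0.27 to 0.50), while *Cdkn1a* and *Trp53inp1* were higher in the induced cells by 1.74 ± 0.28 and 2.92 ± 0.09.

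Reported targets of miR-34, a list taken from general knowledge of this miRNA, had 24 of 45 tested genes lower and 7 higher than in Sca-low cells (median log2 difference −0.53). Over all tested genes 28.6% were lower and 26.3% higher. In Sca-high cells 7 of the 45 were lower and 11 higher, where 20.4% and 19.9% of all tested genes were. In Sca-high NT cells 8 were lower and 12 higher, where 19.1% and 19.3% were, so both counts of lower genes were close to those shares. The direct comparison with Sca-high NT cells had 20 of the 45 lower and 3 higher (median −0.44), where 21.4% and 17.5% were. *Notch1*, a receptor of cell fate signalling, was at 0.353, 0.239 and 0.408 scaled RPKM in Sca-high 34a and 3.15, 3.22 and 2.96 in Sca-low libraries (−2.91 ± 0.21 SE, adjusted p = 1.1e-07). *Met*, the receptor of hepatocyte growth factor, was at 14.8, 12.6 and 17.5 against 28.5, 31.2 and 26.8 (−0.95 ± 0.11). *Sirt1*, a deacetylase, was lower by 1.34 ± 0.08 and *Pip5k1a*, a phosphoinositide kinase, by 0.84 ± 0.08, and none of these 4 overlapped. *Axl*, a receptor kinase, was at 55.0, 52.3 and 60.3 against 50.7, 48.8 and 51.8, a difference of 0.15 (95% interval 0.01 to 0.29) that was not called. It was higher than in Sca-low cells in Sca-high NT cells (0.99 ± 0.06) and lower in induced than in those cells by 0.84 ± 0.06, so its level after induction was close to that of Sca-low cells.

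The 3′ UTRs of the tested genes were searched for CACTGCC and ACTGCCA, which pair with the seed of miR-34a, with both together (CACTGCCA) counted as 1 site of 8 bases. One or more sites were found in 25.5% of 10211 genes with an annotated 3′ UTR in GENCODE vM21 (GRCm38). The share was 28.9% of genes called lower, 21.2% of those called higher and 25.8% of those not called. For the site of 8 bases the shares were 8.41%, 4.97% and 6.70%. Of the 45 reported targets 31 had a site (68.9%), as these genes were in part reported for having one. Of the 24 reported targets called lower 15 had a site (62.5%). The site of 8 bases was in 35.6% of the 45 and in 25% of the 24, so targets called lower did not hold sites more often. A site is shown for each of 4 genes of the last paragraph and for *Ccne2*, with the bases that match the search in capitals, in the direction of the transcript. They lie at chr2:26459338-26459344 (*Notch1*, minus strand), chr6:17571900-17571906 (*Met*, plus strand), chr3:95059343-95059350 (*Pip5k1a*, minus strand), chr7:25758611-25758618 (*Axl*, minus strand) and chr4:11203194-11203201 (*Ccne2*, plus strand), in 3′ UTRs.
Notch1: attttccacagaaaCACTGCCt
Met: tccccaacagttctCACTGCCt
Pip5k1a: agcaggaccctactCACTGCCA
Axl: ggacccaagctaggCACTGCCA
Ccne2: tgtctaaggagttaCACTGCCA

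In the Notch list 5 of 17 tested genes were lower and 5 higher, close to the shares over all tested genes (28.6% and 26.3%), with *Notch2* lower by 1.13 ± 0.18 and the ligand *Jag1* higher by 0.60 ± 0.17. *Jag1* was no longer called without library 4, 6, 10 or 12 (limma adjusted p 0.0143 to 0.0334). Among genes of Wnt reception 10 of 27 were lower and 8 higher, the latter also close to the share over all genes. *Wnt7b* was at 5.24, 5.38 and 5.07 scaled RPKM in Sca-high 34a and 33.9, 33.8 and 37.5 in Sca-low libraries, while *Wnt4* was at 24.0, 22.8 and 22 against 1.22, 1.00 and 0.887. *Wnt4* was also higher in Sca-high and Sca-high NT cells, by 3.72 and 3.48. Of 11 tested feedback genes of the pathway 5 were lower and 4 higher, with log2 differences from −7.68 to 4.31. The counts were also 5 and 4 in Sca-high and in Sca-high NT cells. Some of the largest negative differences were among these genes: *Nkd2* was at 50.4, 47.2 and 55.7 in Sca-low and 0.132, 0.126 and 0.193 in Sca-high 34a libraries, and *Notum*, an enzyme that inactivates Wnt proteins, at 30.0, 28.3 and 33.4 against 0.278, 0.188 and 0.277. *Notum* was lower than in uninduced vector cells as well (−2.89 ± 0.12), whereas *Nkd2* was not called there (−0.44 ± 0.13). *Axin2* was higher than in Sca-low cells by 1.20 ± 0.10.

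Matrix genes held some of the largest positive differences. *Mmp9*, a gelatinase, was at 17.9, 14.3 and 21.7 scaled RPKM in Sca-high 34a and 0.0967, 0.0632 and 0.0491 in Sca-low libraries, a log2 difference of 6.72 ± 0.15 (SE, adjusted p = 2.2e-12). It was at 0.448, 0.452 and 0.430 in Sca-high and 0.596, 0.720 and 0.589 in Sca-high NT libraries, so only the induced libraries were above 1. *Col5a2*, a fibrillar collagen, was at 101, 101 and 88.5 against 3.42, 2.36 and 2.57 in Sca-low libraries and was already at 28.7, 32.3 and 31.7 in Sca-high NT libraries. Of 23 tested mesenchymal and matrix genes 11 were higher and 6 lower, the latter close to the share over all tested genes (28.6%). Against the same Sca-low libraries 13 were higher and 5 lower in Sca-high cells, and 12 and 6 in Sca-high NT cells. Set directly against Sca-high NT cells, the induced cells had 3 of the 23 higher and 7 lower (median −0.11), where 17.5% and 21.4% of all tested genes were. *Sparc*, a matrix-binding protein, was higher by 3.35 ± 0.15. Lower genes were *Vcan*, a proteoglycan (−4.81 ± 0.11), *Cdh2*, N-cadherin (−3.79 ± 0.12), *Fn1*, fibronectin (−2.67 ± 0.27), and *Lox*, *Loxl2* and *Postn*. *Vim* (vimentin) was at 319, 320 and 277 against 378, 350 and 380, a difference of −0.28 (95% interval −0.48 to −0.08) that was not called. *Mmp3* was at 7.74, 8.87 and 6.41 in Sca-high 34a and 9.95, 5.28 and 5.80 in Sca-low libraries, with overlap, against 153, 130 and 156 in Sca-high NT libraries.

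Genes of interferon response and of antigen presentation differed from Sca-low cells in opposite directions. In the interferon list 18 of 29 tested genes were lower and 7 higher (median log2 difference −1.00), and in the list of MHC class I presentation 10 of 13 were higher and 1 lower (median 1.46). Over all tested genes 28.6% were lower and 26.3% higher, so the 7 higher interferon genes were close to that share. Of the 13 MHC class I genes 9 were higher and 1 lower in Sca-high NT cells (median 0.7), and 5 and 1 in Sca-high cells (median 0.2). Induced cells had 10 of the 13 higher than Sca-high NT cells and none lower (median 1.04). *Ifit1*, an antiviral protein, was at 0.1, 0.147 and 0.140 scaled RPKM in Sca-high 34a and 2.80, 2.52 and 3.14 in Sca-low libraries (−3.67 ± 0.13 SE). *Usp18*, which damps interferon signalling, was lower by 4.07 ± 0.15 and *Irf9*, a subunit of the interferon-activated factor, by 3.26 ± 0.09, without overlap. In Sca-high NT cells 22 of the 29 were lower (median −2.13), and 21 were higher in induced than in those cells. *Irf7*, a master regulator of type I interferon, was at 2.33, 2.51 and 2.12 in Sca-high 34a, 4.97, 4.64 and 6.37 in Sca-low and 0.433, 0.443 and 0.331 in Sca-high NT libraries, in between the other groups.

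*B2m*, the light chain of MHC class I, was at 158, 190 and 139 scaled RPKM in Sca-high 34a, 39.6, 40.4 and 43.9 in Sca-low, 36.5, 40.5 and 46.1 in Sca-high and 57.6, 58.5 and 65.1 in Sca-high NT libraries. The induced libraries were the highest of the 12, with a log2 difference of 1.96 ± 0.12 from Sca-low (SE, adjusted p = 1.6e-08) and 1.41 ± 0.12 from Sca-high NT cells. *H2-K1*, a heavy chain, was at 17.3, 16.8 and 15.1 against 6.39, 5.44 and 5.86 in Sca-low libraries. Reads of class I heavy chain genes may be shared between near-identical copies, so its level is less certain than that of *B2m*. *Psmb10*, a subunit of the immunoproteasome, was at 49.5, 49.5 and 37.6 against 6.85, 5.65 and 7.25, and *Irf1*, an activator of these genes, at 24.3, 23.7 and 21.3 against 5.18, 4.90 and 5.41, neither with overlap.

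Of 24 tested cytokine and chemokine genes 16 were higher and 5 lower in Sca-high 34a cells (median log2 difference 1.60), 20 and 2 in Sca-high NT cells (median 2.95), and 12 and 5 in uninfected Sca-high cells (median 0.73). *Il1a*, the alarm cytokine interleukin-1 alpha, was at 132, 171 and 123 scaled RPKM in Sca-high 34a, 36.0, 18 and 22 in Sca-low and 667, 427 and 609 in Sca-high NT libraries. *Ccl2*, a monocyte attractant, was at 49.0, 75.7 and 50.9 in Sca-high 34a, 3.12, 1.51 and 2.09 in Sca-low and 37.2, 40.2 and 44.2 in Sca-high NT libraries. Induced libraries of *Il1a* lay between the other groups, and those of *Ccl2* lay above both, although the difference from Sca-high NT cells was not called (0.50, 95% interval −0.02 to 1.03). *Il6* was at 0.192, 0.208 and 0.116 in Sca-high 34a and 0.377, 0.229 and 0.259 in Sca-low libraries, and its difference of −0.51 (−0.90 to −0.13) was not called.

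In the list of cholesterol and fatty acid synthesis 20 of 27 tested genes were higher than in Sca-low cells and 1, *Fasn*, was lower (median 1.00). In Sca-high NT cells 23 were higher, and in uninfected Sca-high cells 1 was higher and 11 were lower. Set directly against Sca-high NT cells, the induced cells had 1 of the 27 higher and 12 lower (median −0.48). Over all tested genes 17.5% were higher and 21.4% lower in that comparison. *Hsd17b7*, an enzyme of late sterol synthesis, was at 42.0, 45.6 and 45.1 scaled RPKM in Sca-high 34a, 3.99, 3.30 and 3.18 in Sca-low and 28.7, 25.1 and 28.3 in Sca-high NT libraries. *Nsdhl*, which acts next to it, was higher than in Sca-low cells by 3.11 ± 0.10 and did not pass the test against Sca-high NT cells (0.29 ± 0.10). *Fasn*, fatty acid synthase, was lower by 2.23 ± 0.22, with library 12 at 33.5 next to 20.8 and 17.3 in the other induced libraries and at least 101 in each Sca-low library.

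**Figure D4:**
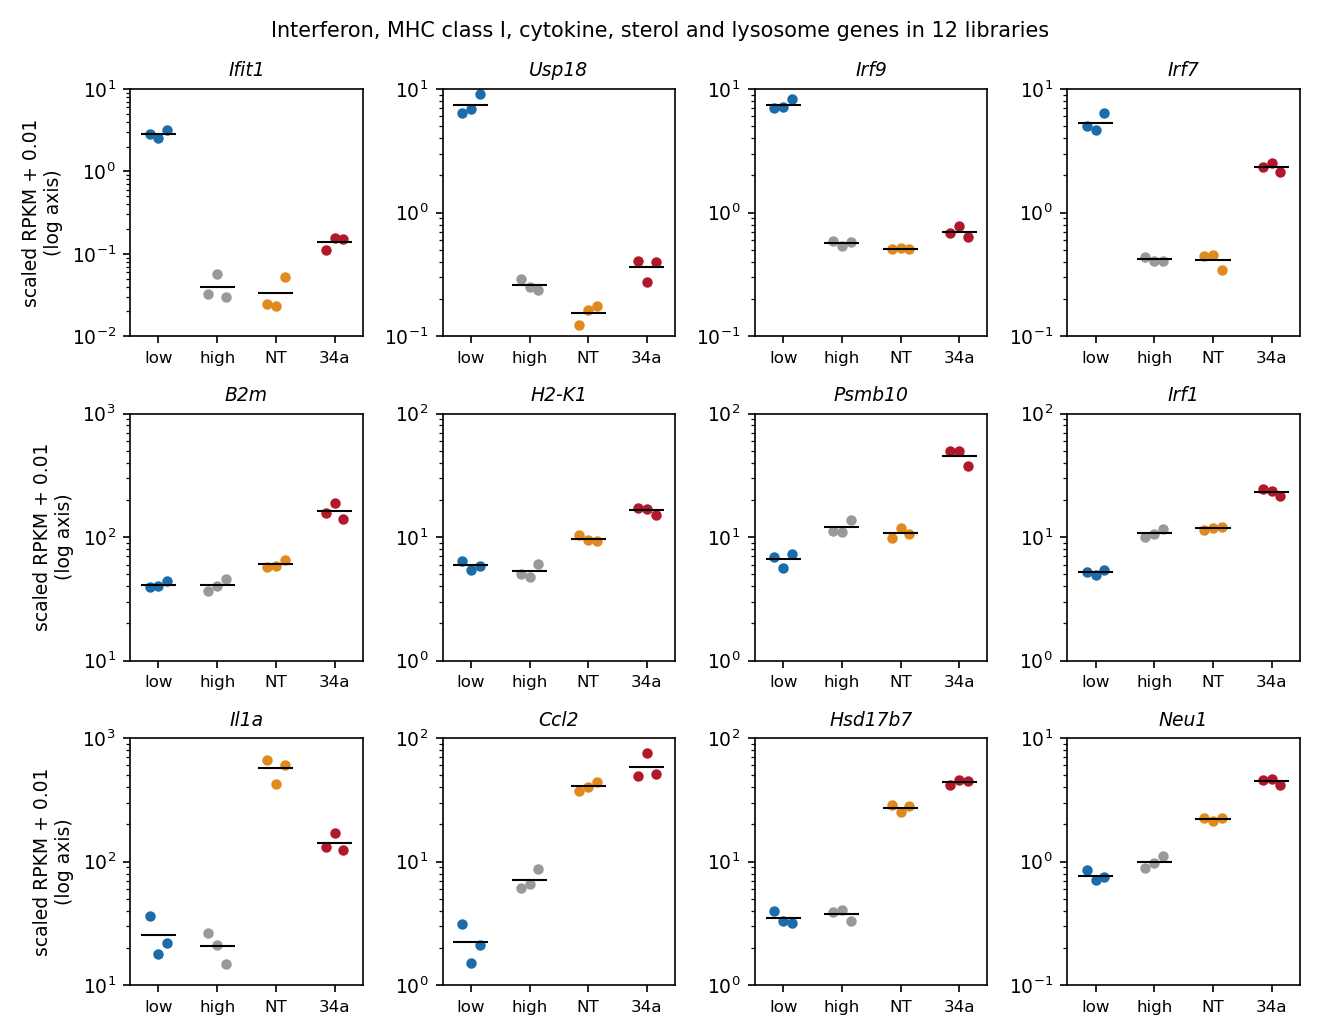
Scaled RPKM + 0.01 (vertical axes, log scale, a separate range per gene) of interferon, antigen presentation, cytokine, sterol and lysosome genes in the Sca-low, Sca-high, Sca-high NT and Sca-high 34a groups (horizontal axes); each point is a library and each bar a group mean. *Ifit1*, *Usp18* and *Irf9* are highest in Sca-low, *B2m*, *H2-K1*, *Psmb10* and *Irf1* are highest in Sca-high 34a, and *Il1a* is highest in Sca-high NT libraries.

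Lysosomal genes were higher in 20 of 30 tested cases and lower in 3 (median log2 difference 0.92), where 26.3% and 28.6% of all tested genes were. Against the same Sca-low libraries 15 were higher and 4 lower in Sca-high NT cells, and 11 and 4 in Sca-high cells. The induced cells had 13 of the 30 higher and 3 lower than Sca-high NT cells, where 17.5% and 21.4% of all tested genes were. *Neu1*, a sialidase, was at 4.54, 4.69 and 4.15 scaled RPKM in Sca-high 34a and 0.839, 0.705 and 0.738 in Sca-low libraries, without overlap, and was higher by 2.41 ± 0.09 on the log2 scale. *Ctsh* (cathepsin H) was lower by 3.31 ± 0.09, and *Ctsd* (cathepsin D) differed by −0.05 (95% interval −0.36 to 0.25). In the glutathione list 13 of 25 tested genes were higher and 9 lower, next to 11 and 4 in Sca-high NT and 12 and 4 in Sca-high cells. The transferase *Gstt1* was at 5.71, 6.26 and 4.69 in Sca-high 34a and 0.0532, 0.0717 and 0.0744 in Sca-low libraries, whereas *Gpx2*, a glutathione peroxidase of epithelium, was lower by 5.51 ± 0.16. The list of hypoxia and glycolysis had 27 tested genes, of which 14 were higher and 3 lower. In Sca-high cells 20 and 1 were, and in Sca-high NT cells 19 and 1. *Aldoa* and *Aldoc*, aldolases of glycolysis, parted: *Aldoa* was at 63.3, 59.1 and 60.7 against 205, 187 and 208, and *Aldoc* at 21.3, 23.7 and 16.8 against 0.633, 0.490 and 0.634.

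Of 41 tested genes of ribosome biogenesis and MYC 22 were lower, 17 were not called and 2 were higher (*Odc1* and *Nme1*), with a median log2 difference of −0.60, and 2 of the 41 were lower and 8 higher in Sca-high NT cells. *Gnl3* (nucleostemin) was at 16.4, 17.9 and 15.6 scaled RPKM in Sca-high 34a and 44.5, 42.6 and 45.4 in Sca-low libraries. *Myc* was lower by 0.67 ± 0.18 (SE, adjusted p = 0.0049), with library 12 at 10 next to 7.04 and 6.34, and it was no longer called when any of the 6 libraries but 12 was left out (limma adjusted p 0.0133 to 0.0222). In the ATF4 and amino acid list 14 of 24 tested genes were lower, 7 were not called and 3 were higher. *Trib3*, a target of ATF4, was lower by 2.97 ± 0.14 and *Slc7a5*, an amino acid transporter, by 2.35 ± 0.14. Of 8 tested Hox genes 6 were higher and none was lower, as in Sca-high and Sca-high NT cells, and *Hoxb9* was higher by 2.57 ± 0.09.

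**Figure D5:**
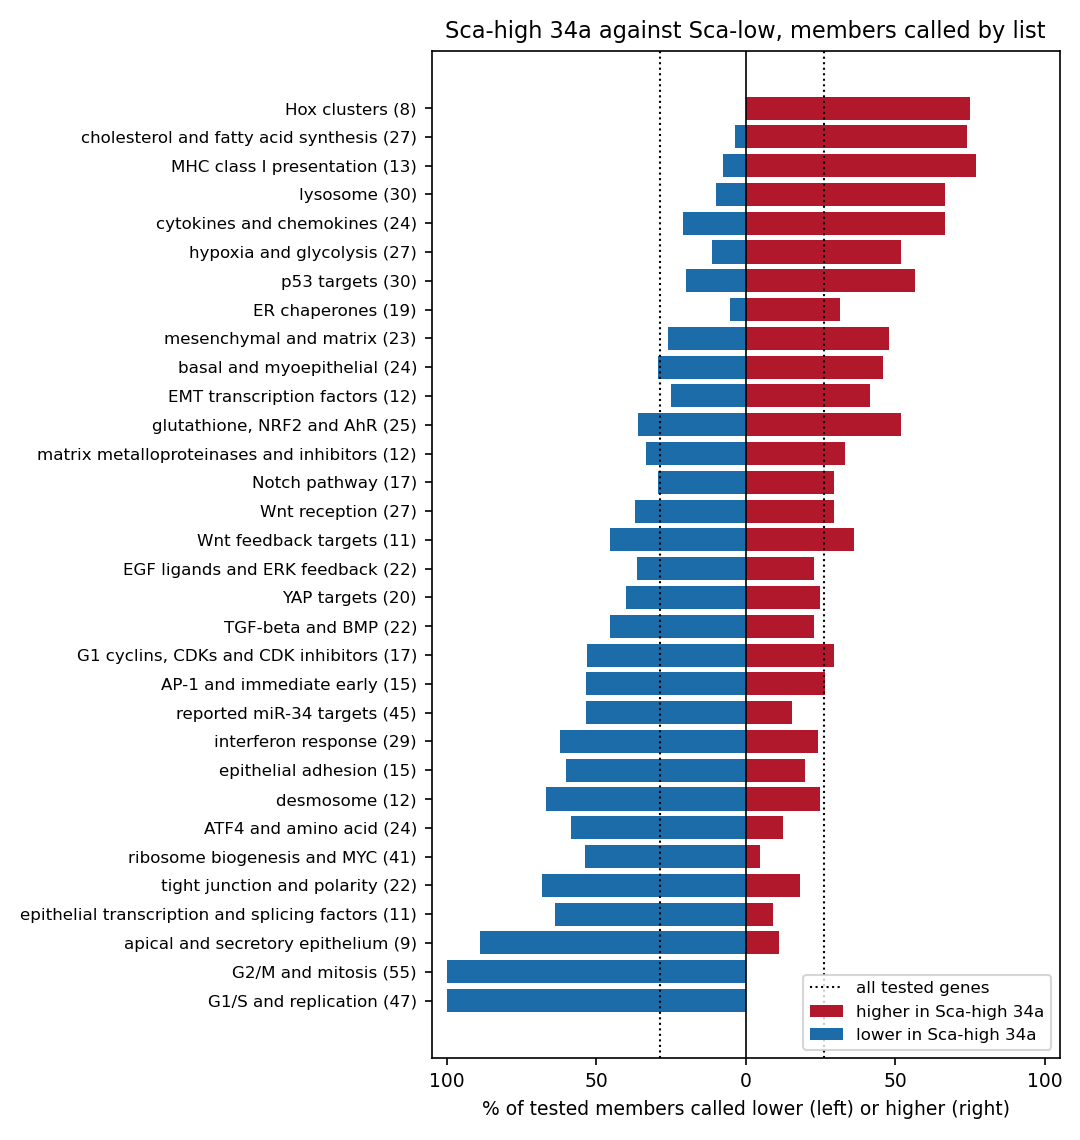
Share of the tested members of each list (vertical axis, number tested in brackets) that was called lower (left) or higher (right) in Sca-high 34a than in Sca-low cells, in percent (horizontal axis); the dotted lines mark all tested genes, 28.6% lower and 26.3% higher. The 2 cell cycle lists lie wholly on the lower side, and Hox, sterol, MHC class I and lysosome genes lie mostly on the higher side.

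The genes with the largest differences cut across these lists. Besides *Mir34a*, *Mmp9*, *Col5a2*, *Ccnd2*, *Gstt1* and *Aldoc*, the 10 genes most above Sca-low cells included *Gpr56*, an adhesion receptor, *C1s1*, a protease of the complement system, *Aldh1l1*, a folate enzyme, and *Ccl7*, a chemokine. *Gpr56* was at 17.6, 14.8 and 25.1 scaled RPKM in Sca-high 34a, 0.345, 0.330 and 0.295 in Sca-low and 0.388, 0.574 and 0.458 in Sca-high NT libraries, so like *Mmp9* it was high only in the induced group. Among the 10 most below Sca-low cells, besides *Krt18*, *Krt7*, *Epcam*, *Wfdc2*, *Nkd2* and *Notum*, were *Wfdc18*, a whey acidic protein family member, *Kcnk1*, a potassium channel, *Cited4*, a transcriptional coactivator, and *Spns2*, a lipid transporter. *Wfdc18* had 0, 3 and 0 reads and *Cited4* 2, 2 and 1 reads in the induced libraries, against 41.6, 37.8 and 46.9 and 14.3, 14.5 and 18.5 scaled RPKM in Sca-low libraries. *Kcnk1* and *Spns2* were lower by 7.18 ± 0.10 and 6.68 ± 0.08, and neither was called between induced and uninduced vector cells (−0.22, 95% interval −0.44 to 0.01, and −0.20, −0.38 to −0.03).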

How the data were processed

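RNA-seq covered 12 libraries in 4 groups of 3, of which 6 were compared here. The deposited table holds, for each gene, an RPKM value in every library. The submitters' processing notes name mm9 as the genome build, and DESeq2 and TopHat2 (version 2.0.6) as tools. For the read counter and the annotation, no name is given in the sources used here. Fold changes, p-values and mean reads computed by the authors are in the same table, and the fold changes and p-values were not used. The steps between RPKM values, with the deposited mean reads, gave back whole reads (99.9% of 196893 values above 0 within 0.1 read), giving 35415610 to 39953194 reads for the 6 libraries.

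Libraries were rescaled by an unweighted trimmed mean of M values (30% of M, 5% of A values trimmed). limma 3.58.1 (R 4.3.3) was fitted to log2(scaled RPKM + 0.1) with 4 group means over 12 libraries, a trend of the spread on expression, and 8 residual and 3.29 prior degrees of freedom. Adjusted p-values are Benjamini-Hochberg over 10597 genes. Fold changes on this scale understate the change of low genes. Comparisons that share libraries are set side by side by their own values. On simulated reads of 9848 genes, 92.7% of 96 genes changed by a log2 of 1 were recovered and 100% of 93 changed by 2, with 4 unchanged genes called. These reads were drawn around Sca-low means with a fixed spread and few changed genes. They do not imitate the uneven spread of the real libraries or the large share of genes called here. Promoters and miRNAs came from RefSeq tables of GRCm38.p6 and 3′ UTRs from GENCODE vM21, another build than the authors'. Tables were handled in Python 3.11.15 with numpy 2.4.6 and pandas 2.3.3, and figures drawn with matplotlib 3.10.9.

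The comparison, the 41 gene lists and the rules were chosen with earlier results of these data known. Genes named were the 10 largest differences each way (called, at least 5 scaled RPKM in the higher group, no overlap), the preset key genes and markers, and from each list the 3 called members each way with the smallest p. Named beside these, after their values were seen, were Ccna2, Cdh3, Cdkn1b, Cdkn2a, Cdkn2b, Crb3, Ehf, Fas, Il1a, Il6, Itgb4, Krt17, Loxl2, Mcm2, Mmp3, Notch2, Pip5k1a, Postn, Sirt1, Snai1, Sparc, Tjp1, Trp53 and Usp18. The alternatives were other scalings, filters, pseudocounts and thresholds, a model of only the 6 libraries, limma-voom on recovered reads, and each of the 6 libraries left out. Some genes of the lists are not reported here.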

Additional observations from a re-analysis of the deposited data

How the results depend on the processing

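Under the 16 alternatives run, no named gene that was called changed direction. Of the 124 genes named, 115 were called, 99 of these kept the call under every alternative that tested them, and 16 lost it under at least 1. An absolute log2 difference above 1 left 3257 genes, 1497 higher and 1760 lower. The median distance between Sca-low and Sca-high 34a libraries was 1.4 without the cell cycle lists, an alternative added after seeing the data. Leaving out each of the 6 libraries in turn gave 5694 to 5944 genes. Genes called higher outnumbered those called lower on the deposited scale (3234 and 2660) and under upper quartile scaling (2951 and 2876). The median log2 difference of all genes was 0.09 on the deposited scale and −0.03 here. Keeping only genes at 1 RPKM or more in every library tested 8449 genes, which removed genes near the floor in 1 group by its construction. It left as lower 3 adhesion, 2 tight junction, 3 desmosome, 1 epithelial transcription factor, 4 apical and 4 interferon genes, and as higher 0 transcription factors of the epithelial to mesenchymal transition, 11 p53 targets and 9 cytokines. Without a filter 7319 of 18912 genes were called. With 3 libraries a group, differences near the threshold depend on single libraries, and library 12 lay apart from 10 and 11 (chi-square per gene 60.1 and 118, against 15.1 between 10 and 11). Which of sort, vector, doxycycline and miRNA a difference follows cannot be told apart. No paired analysis was possible because the columns carry a group and a running number but not the replicate numbers of the labels.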
